A study of Arabidopsis thaliana with 8 samples.

Results

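Plastids keep a small genome of their own, which encodes core subunits of the photosynthetic complexes, part of the plastid ribosome, the core of the plastid RNA polymerase and a few other proteins. Here the transcripts of 62 plastid-encoded genes were followed in inflorescences that ectopically expressed a *CYC2* transcription factor. The 62 genes are those whose probe set names a single gene in the probe annotation of the ATH1 array and whose gene is plastid-encoded. There were 69 such probe sets among the 22746 tested, 1 for each gene, and the 7 of *ndhH*, *ndhA*, *ndhI*, *ndhG*, *ndhE*, *psaC* and *ndhD*, a block of neighbouring genes, were left out. By symbol prefix the genes comprise 4 of photosystem I (*psa*), 15 of photosystem II (*psb*), 6 of the cytochrome b6f complex (*pet*), 6 of the ATP synthase (*atp*) and 4 of the NDH complex (*ndh*). A further 8 encode proteins of the small ribosomal subunit (*rps*), 7 of the large subunit (*rpl*), 4 the RNA polymerase (*rpo*) and 8 other proteins (*accD*, *ccsA*, *cemA*, *clpP*, *matK*, *rbcL*, *ycf3* and *ycf4*).

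Total RNA came from secondary inflorescences with closed buds of *Arabidopsis thaliana* Columbia T2 plants of 4 groups, with 2 arrays in each. The 35S::IaTCP1 plants carried *IaTCP1* of *Iberis amara*, the 35S::TCP1 plants *TCP1* of *Arabidopsis*, and the 35S::CYC plants *CYC* of *Antirrhinum majus*. Each coding sequence stood in the pBAR vector under the CaMV35S promoter, which is active in most tissues, and the reference plants carried the pBAR vector without insert (empty vector). The 35S::IaTCP1 and 35S::TCP1 plants had been chosen for smaller petals and the 35S::CYC plants for larger ones. The arrays of a group carried technical RNA samples of 1 transgenic line, so every p-value below covers technical spread and none covers differences among lines. Values are log2 intensities, a log2 change is the difference between group means, and a gene is said to have risen, fallen or passed when limma gave it a change of 2-fold or more and a p-value of at most 0.05 after Benjamini-Hochberg adjustment. The comparison asked whether plastid transcripts differed between plants with and without a *CYC2* transgene.

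Plastid genes are arranged in clusters that are transcribed together and then cut and spliced into smaller mRNAs. The clusters are read by a bacterial-type polymerase, whose core is encoded by the *rpo* genes of the plastid, and by a phage-type polymerase encoded in the nucleus. The abundance of a plastid mRNA depends on the number of genome copies, on transcription and strongly on RNA stability, and the probes of an array do not separate precursors from mature mRNAs. In whole inflorescences, fewer plastid-rich cells and less plastid RNA per cell cannot be told apart. Plastid mRNAs, unlike nuclear mRNAs, carry no stable poly(A) tail, and the primer used for cDNA synthesis is not given in the sources used here.

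Some plastid transcripts rose with each of the transgenes and none of the 62 fell. In 35S::TCP1 inflorescences 21 of the 62 genes rose (33.9%), against 0.659% of all probe sets. In 35S::CYC inflorescences 17 rose (27.4%, all probe sets 1.53%), and in 35S::IaTCP1 inflorescences 11 rose (17.7%, all probe sets 0.976%). Of all probe sets 1.25%, 1.55% and 2.35% fell with 35S::TCP1, 35S::CYC and 35S::IaTCP1. The median log2 change of the 62 genes was 0.45 for 35S::IaTCP1, 0.56 for 35S::TCP1 and 0.41 for 35S::CYC, while the median of all probe sets lay at 0.05, 0.03 and 0.02. On the adjusted p alone, 22 genes were higher with 35S::IaTCP1 (all probe sets 8.75%), 27 with 35S::TCP1 (6.25%) and 25 with 35S::CYC (8.89%), and 3 were lower with 35S::IaTCP1 (all probe sets 11.7%). Both transgene arrays lay above both empty vector arrays in 33 genes for 35S::IaTCP1, 32 for 35S::TCP1 and 27 for 35S::CYC, where all probe sets gave 35.6%, 32.4% and 32.9%. Single genes ranged between -0.42 and 1.90 for 35S::IaTCP1, between -0.34 and 2.52 for 35S::TCP1 and between -0.21 and 1.80 for 35S::CYC. All of these comparisons share the same pair of empty vector arrays, so the lines are not independent of each other in this respect.

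The empty vector arrays differed for these genes. Replicate 1 of the empty vector was the lowest of the 8 arrays for 47 of the 62 plastid genes (75.8%), against 20.2% of all probe sets. Replicate 2 exceeded replicate 1 in 61 of the 62 genes, by a median of 0.42 on the log2 scale, while over all probe sets the median difference was 0.02. The same was seen in 35S::TCP1 (59 of 62 genes, median 0.43) and 35S::CYC (57 of 62, median 0.33), but 35S::IaTCP1 gave 30 of 62 genes and a median of -0.01. Without replicate 1 of the empty vector, the medians fell to 0.11 for 35S::IaTCP1, 0.28 for 35S::TCP1 and 0.09 for 35S::CYC, and fewer genes rose. Without replicate 2 of the empty vector, more genes rose in every line than with it. Replicate 2 of 35S::TCP1 was the highest of the 8 arrays for 37 of the 62 genes, and without it the median for 35S::TCP1 was 0.27. Without replicate 2 of 35S::CYC the median for 35S::CYC was 0.21. The size of the shift thus moved with the control array and, for 35S::TCP1 and 35S::CYC, with a transgene array as well. Genes that passed in every fit without a single array are listed apart below.

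**Figure D1:**
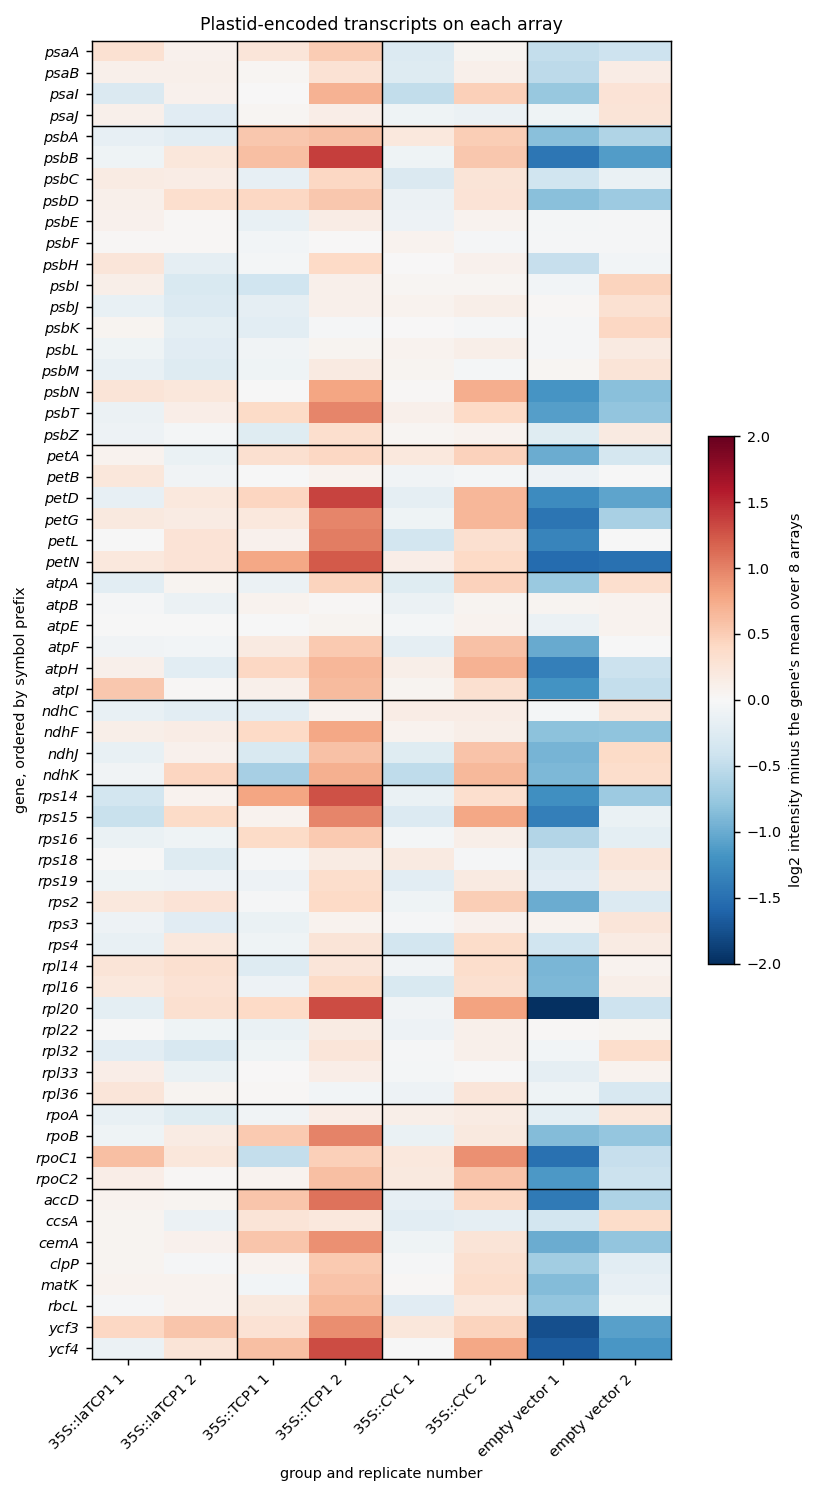
Log2 intensity of each of the 62 plastid genes (rows, by symbol prefix) on each of the 8 arrays (columns, group and replicate number), as the difference from the mean of that gene over the 8 arrays. Replicate 1 of the empty vector is the bluest column, being lowest for 47 genes, and replicate 2 of 35S::TCP1 the reddest, being highest for 37.

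Within a replicate number, each transgene array can be set against the empty vector array of the same number. At number 1 the median difference of the 62 genes was 0.75 for 35S::IaTCP1, 0.73 for 35S::TCP1 and 0.55 for 35S::CYC, and at number 2 it was 0.17, 0.49 and 0.30. For 35S::IaTCP1, 19 genes were at least 2-fold higher at number 1 (all probe sets 1.09%) and 7 at number 2 (0.910%). Of these, 6 were so at both numbers, as were 185 of all 22746 probe sets. For 35S::TCP1, 24 genes (0.677% of all probe sets) and 21 genes (0.703%) reached 2-fold, 21 at both numbers (131 of all probe sets). For 35S::CYC it was 18 genes (1.57%) and 16 genes (1.54%), 14 at both (309 of all probe sets). The shares stood above those of all probe sets at both numbers in every line.

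**Figure D2:**
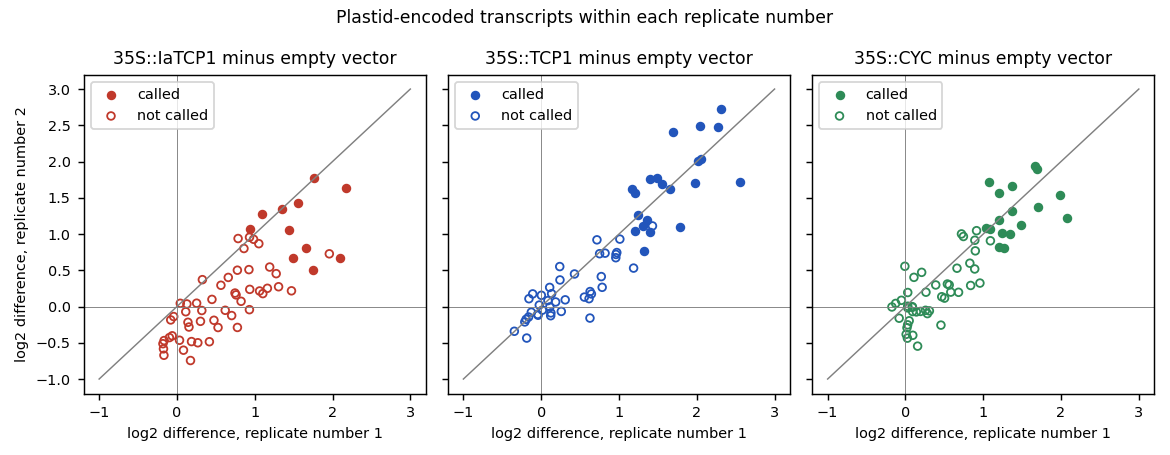
Log2 difference of each plastid gene between a transgene array and the empty vector array of replicate number 1 (horizontal) and of number 2 (vertical), for 35S::IaTCP1, 35S::TCP1 and 35S::CYC, where filled points passed the fold and adjusted p thresholds and the line marks equal differences. Most points of 35S::IaTCP1 lie below the line (medians 0.75 and 0.17), with medians of 0.73 and 0.49 for 35S::TCP1 and 0.55 and 0.30 for 35S::CYC.

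The cytochrome b6f complex, which passes electrons from photosystem II to photosystem I, had the largest share of risen genes. Of its 6 genes, 3 rose with 35S::IaTCP1, 5 with 35S::TCP1 and 4 with 35S::CYC, with medians of 0.99, 1.43 and 1.18. *petD*, *petG*, *petL* and *petN* were among the 21 of the 62 genes with the lowest mean intensity, and *petB* among the 21 with the highest. The part of signal level in this ranking of complexes was not tested. *petN*, which encodes a small subunit of the complex, had the largest rise of the 62 genes with 35S::TCP1. Its log2 intensity was 6.87 and 6.94 on the 35S::IaTCP1 arrays, 7.43 and 7.89 on the 35S::TCP1 arrays and 6.80 and 7.06 on the 35S::CYC arrays, against 5.11 and 5.17 on the empty vector arrays. All 6 transgene arrays thus lay well above both controls, which agreed closely for this gene. The log2 changes of *petN* were 1.77, 2.52 and 1.79 (standard error 0.14 each, limma adjusted p = 1.17e-06, 1.84e-07 and 1.28e-06), that is 3.40-fold, 5.73-fold and 3.45-fold.

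*petD*, which encodes subunit IV of the complex, measured 5.62 and 6.00 with 35S::IaTCP1, 6.22 and 7.14 with 35S::TCP1 and 5.60 and 6.44 with 35S::CYC, against 4.52 and 4.73 with the empty vector. These groups did not overlap with the control, and the changes were 1.18, 2.05 and 1.39 (limma adjusted p = 0.0101, 2.81e-04 and 0.00351). *petG*, another small subunit, rose by 1.23, 1.64 and 1.35. *petA*, the gene of cytochrome f, rose with 35S::TCP1 (1.04) and 35S::CYC (1.01) and changed by 0.64 with 35S::IaTCP1, which is under 2-fold. *petL* passed only narrowly, with 35S::TCP1 (1.21, adjusted p = 0.0466 in limma), and its empty vector arrays were far apart at 6.16 and 7.47. *petB*, which encodes cytochrome b6 and lies beside *petD*, did not pass in any line, with changes of 0.13, 0.08 and 0.01 for 35S::IaTCP1, 35S::TCP1 and 35S::CYC.

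Photosystem II, which splits water, was divided. Of its 15 genes, 3 rose with 35S::IaTCP1, 5 with 35S::TCP1 and 4 with 35S::CYC, yet the median changes of the group were only 0.08, 0.08 and 0.09. Of those that rose, *psbB*, *psbD*, *psbN* and *psbT* were among the 21 plastid genes with the lowest mean intensity, and *psbA* was in the middle. *psbB*, the gene of the inner antenna protein CP47, measured 6.61 and 6.93 with 35S::IaTCP1, 7.30 and 8.08 with 35S::TCP1 and 6.62 and 7.25 with 35S::CYC, against 5.25 and 5.58 with the empty vector. Its changes of 1.35, 2.27 and 1.51 (standard error 0.24 each, limma adjusted p = 0.00142, 3.62e-05 and 6.01e-04) held in every fit that left out a single array. *psbN*, whose product is known from tobacco to act in photosystem II assembly and whose gene lies on the opposite strand within the *psbB* cluster, rose by 1.25, 1.39 and 1.38. *psbT*, a small subunit encoded next to *psbB*, rose with 35S::TCP1 (1.63) and 35S::CYC (1.20), and was at 0.96 with 35S::IaTCP1.

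The reaction centre genes gave intermediate values. *psbA*, the gene of the D1 protein, measured 8.15 and 8.12 with 35S::IaTCP1, 8.86 and 8.91 with 35S::TCP1 and 8.53 and 8.81 with 35S::CYC, against 7.49 and 7.72 with the empty vector. It rose with 35S::TCP1 (1.28, limma adjusted p = 7.09e-06) and 35S::CYC (1.06, adjusted p = 1.77e-05), while its change of 0.53 with 35S::IaTCP1 had an adjusted p of 0.00402 and was below 2-fold. *psbD*, the gene of the D2 protein, was just inside the fold threshold with 35S::IaTCP1 at 1.00 and rose by 1.25 with 35S::TCP1, and with 35S::CYC it stayed outside at 0.86. *psbC*, the gene of CP43 that follows *psbD*, did not pass with changes of 0.43, 0.40 and 0.26 for 35S::IaTCP1, 35S::TCP1 and 35S::CYC.

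The other photosystem II genes were flat or slightly negative. *psbE* and *psbF*, both of cytochrome b559, had changes between -0.00 and 0.08 in all comparisons. The 3 genes with an adjusted p of 0.05 or less on the negative side, all with 35S::IaTCP1, were *psbJ* (-0.38), *psbM* (-0.35) and the ribosomal gene *rps3* (-0.32), each less than 2-fold. *psbI* and *psbK* were among the lowest values of every line, with -0.28 and -0.26 for 35S::IaTCP1, -0.34 and -0.31 for 35S::TCP1 and -0.15 and -0.21 for 35S::CYC, and *psbL*, *psbH* and *psbZ* lay between -0.23 and 0.44.

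None of the 4 photosystem I genes passed in any line. *psaA*, which encodes a reaction centre protein, came nearest and measured 6.26 and 6.05 with 35S::IaTCP1, 6.20 and 6.47 with 35S::TCP1 and 5.69 and 6.02 with 35S::CYC, against 5.49 and 5.55 with the empty vector. Its changes were 0.64, 0.82 and 0.34 (limma adjusted p = 0.00295, 6.85e-04 and 0.0818), so the difference was beyond the spread of the arrays for the crucifer genes but under 2-fold. *psaB*, the partner of *psaA* in the reaction centre, changed by 0.28, 0.34 and 0.10, and for 35S::IaTCP1 and 35S::CYC it changed sign without replicate 1 of the empty vector. The small subunit genes *psaI* and *psaJ* gave values between -0.19 and 0.59, and *psaJ* had changes of -0.15, -0.00 and -0.19.

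**Figure D3:**
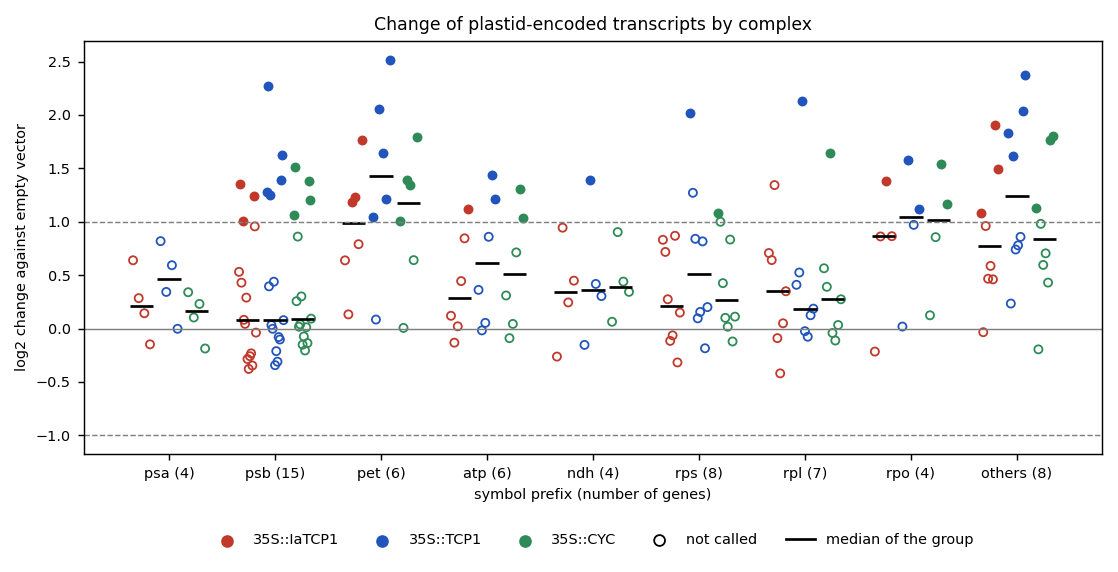
Log2 change of each plastid gene against the empty vector (vertical) by symbol prefix (horizontal, number of genes in brackets), for 35S::IaTCP1, 35S::TCP1 and 35S::CYC from left to right in each group. Filled points passed the fold and adjusted p thresholds, bars are medians and dashed lines mark 2-fold, so the pet, rpo and other genes stand highest and the psa genes show no filled point.

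In the ATP synthase, which makes ATP from the proton gradient, 1 of 6 genes rose with 35S::IaTCP1 and 2 each with 35S::TCP1 and 35S::CYC. *atpI*, a subunit of the membrane part, measured 6.98 and 6.46 with 35S::IaTCP1, 6.55 and 7.08 with 35S::TCP1 and 6.50 and 6.76 with 35S::CYC, against 5.24 and 5.96 with the empty vector. It rose by 1.12, 1.21 and 1.03 without overlap, but fell below the thresholds in each line without replicate 1 of the empty vector (0.76, 0.85 and 0.67). *atpH*, the gene of the membrane ring, rose by 1.44 with 35S::TCP1 and 1.31 with 35S::CYC and was at 0.84 with 35S::IaTCP1. *atpF* and *atpA*, the next genes of the same cluster, did not pass (0.44 and 0.12 for 35S::IaTCP1, 0.86 and 0.36 for 35S::TCP1, 0.71 and 0.31 for 35S::CYC). *atpB* and *atpE*, both of the catalytic head and encoded together elsewhere, were flat at -0.13 and 0.02 for 35S::IaTCP1, -0.02 and 0.05 for 35S::TCP1 and -0.09 and 0.04 for 35S::CYC.

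Of the 4 genes of the NDH complex, which carries out cyclic electron flow around photosystem I, only *ndhF* passed, and only with 35S::TCP1. It measured 6.96 and 7.00 with 35S::IaTCP1, 7.24 and 7.61 with 35S::TCP1 and 6.92 and 6.96 with 35S::CYC, against 6.03 and 6.04 with the empty vector. The groups did not overlap, and the changes of 0.94 and 0.90 for 35S::IaTCP1 and 35S::CYC (limma adjusted p = 5.26e-05 and 8.11e-05) missed the fold threshold alone, while 35S::TCP1 reached 1.39 (adjusted p = 4.26e-06). *ndhJ*, *ndhK* and *ndhC*, which form another cluster, gave between -0.26 and 0.45. The empty vector arrays of *ndhK*, at 6.62 and 7.87, and of *ndhJ*, at 7.34 and 8.64, were more than 2-fold apart.

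The ribosomal protein genes mostly did not pass. Among the 8 *rps* genes 0 rose with 35S::IaTCP1 and 1 each with 35S::TCP1 and 35S::CYC, and the same counts were found among the 7 *rpl* genes. *rps14* measured 5.14 and 5.58 with 35S::IaTCP1, 6.30 and 6.79 with 35S::TCP1 and 5.37 and 5.85 with 35S::CYC, against 4.28 and 4.78 with the empty vector. It rose by 2.02 with 35S::TCP1 (standard error 0.21, limma adjusted p = 3.43e-05) and by 1.08 with 35S::CYC, and was at 0.83 with 35S::IaTCP1. The control arrays of *rpl20* were the farthest apart. It measured 6.82 and 7.33 with 35S::IaTCP1, 7.41 and 8.31 with 35S::TCP1 and 6.93 and 7.81 with 35S::CYC, against 4.86 and 6.60 with the empty vector. Its changes of 2.13 with 35S::TCP1 and 1.65 with 35S::CYC passed, but that of 1.34 with 35S::IaTCP1 did not (limma adjusted p = 0.0596), whereas a fit that blocked on the replicate number let it pass (adjusted p = 7.95e-04). *rps15* likewise passed for 35S::TCP1 only with the block (1.27, limma adjusted p = 0.0642 without and 7.21e-06 with it), as its control arrays were at 5.78 and 7.02.

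The other ribosomal genes ranged widely without passing. *rps2* changed by 0.87, 0.82 and 0.83 with 35S::IaTCP1, 35S::TCP1 and 35S::CYC, all with an adjusted p below the threshold but under 2-fold, and *rps16* reached 0.84 with 35S::TCP1. *rps4*, whose bacterial counterpart binds ribosomal RNA early in assembly, gave 0.15, 0.20 and 0.11 and became negative in each line without replicate 1 of the empty vector. *rpl32* gave the lowest value of the 62 genes with 35S::IaTCP1 (-0.42), and *rpl22*, *rpl33*, *rps18* and *rps19* lay between -0.12 and 0.16 in all comparisons. The *rpl2* gene is covered only by a probe set that names both repeat copies, and it was flat at -0.08, 0.00 and -0.00.

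Of the 4 genes of the bacterial-type RNA polymerase, 1 rose with 35S::IaTCP1 and 2 each with 35S::TCP1 and 35S::CYC, with medians of 0.86, 1.05 and 1.01. *rpoB*, the gene of the beta subunit, measured 4.92 and 5.16 with 35S::IaTCP1, 5.52 and 5.99 with 35S::TCP1 and 4.87 and 5.19 with 35S::CYC, against 4.13 and 4.23 with the empty vector. All transgene arrays were above both controls, the change of 1.58 with 35S::TCP1 passed (limma adjusted p = 1.63e-05), and the 0.86 of both 35S::IaTCP1 and 35S::CYC did not reach 2-fold. *rpoC1* rose by 1.38 with 35S::IaTCP1 and 1.54 with 35S::CYC, but not with 35S::TCP1 (0.97, limma adjusted p = 0.0766), and its control arrays were at 7.68 and 8.72. *rpoC2* rose by 1.12 with 35S::TCP1 and 1.17 with 35S::CYC and was at 0.86 with 35S::IaTCP1. *rpoA*, the gene of the alpha subunit, which lies in a cluster of ribosomal genes far from the others, gave -0.22, 0.02 and 0.12 for 35S::IaTCP1, 35S::TCP1 and 35S::CYC.

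Among the other genes, those of photosystem I assembly stood out. *ycf3* measured 8.67 and 8.81 with 35S::IaTCP1, 8.55 and 9.20 with 35S::TCP1 and 8.49 and 8.71 with 35S::CYC, against 6.50 and 7.17 with the empty vector. *ycf4* measured 7.06 and 7.44 with 35S::IaTCP1, 7.78 and 8.48 with 35S::TCP1 and 7.17 and 7.95 with 35S::CYC, against 5.51 and 6.01 with the empty vector. The lowest transgene array exceeded the highest control array by more than 2-fold for both genes. Changes of *ycf3* were 1.90, 2.04 and 1.76 (limma adjusted p = 3.40e-05, 3.44e-05 and 7.03e-05), and those of *ycf4* were 1.49, 2.37 and 1.80 (adjusted p = 0.00128, 5.01e-05 and 3.04e-04), while the photosystem I genes themselves did not pass.

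*accD* encodes a subunit of the acetyl-CoA carboxylase of fatty acid synthesis and is known to be read by the phage-type polymerase. This gene rose in all lines. It measured 7.21 and 7.19 with 35S::IaTCP1, 7.69 and 8.22 with 35S::TCP1 and 6.96 and 7.54 with 35S::CYC, against 5.72 and 6.52 with the empty vector. The changes were 1.08, 1.83 and 1.13, and without replicate 1 of the empty vector only that of 35S::TCP1 passed (0.68, 1.44 and 0.73). *cemA*, which encodes a protein of the plastid envelope, rose with 35S::TCP1 (1.62, limma adjusted p = 6.46e-06) and was at 0.96 with 35S::IaTCP1 and 0.98 with 35S::CYC, just outside the fold threshold.

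*rbcL*, the gene of the large subunit of Rubisco that fixes CO2, measured 9.41 and 9.50 with 35S::IaTCP1, 9.62 and 10.09 with 35S::TCP1 and 9.21 and 9.64 with 35S::CYC, against 8.65 and 9.34 with the empty vector. Only 35S::TCP1 and 35S::IaTCP1 did not overlap with the control, and the changes of 0.46, 0.86 and 0.43 did not reach 2-fold (limma adjusted p = 0.148, 0.0144 and 0.185). *clpP*, a protease subunit, gave 0.47, 0.74 and 0.60, *matK*, a splicing factor, 0.59, 0.78 and 0.70, and *ccsA*, which acts in cytochrome assembly, -0.03, 0.23 and -0.19.

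The count of genes that passed in a line and in each of the 4 fits without 1 of its arrays or of the control arrays was 5 for 35S::IaTCP1, 14 for 35S::TCP1 and 6 for 35S::CYC. For 35S::IaTCP1 these were *petN*, *psbB*, *psbN*, *ycf3* and *ycf4*. For 35S::TCP1 they were *accD*, *cemA*, *ndhF*, *petD*, *petG*, *petN*, *psbA*, *psbB*, *psbD*, *psbT*, *rpoB*, *rps14*, *ycf3* and *ycf4*. For 35S::CYC they were *petN*, *psbB*, *psbN*, *psbT*, *ycf3* and *ycf4*. The share of all probe sets that passed in every such fit was not counted.

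Direct comparisons between the transgene lines do not use the control means. The level was lower in 35S::IaTCP1 than in 35S::TCP1 inflorescences for 50 of the 62 genes (all probe sets 48.6%), with a median of -0.20. Within replicate numbers the median difference was -0.001 at number 1 and -0.43 at number 2, so the shift lay in the arrays of number 2. Only *rps14* passed, as lower with 35S::IaTCP1 (-1.18, standard error 0.21, limma adjusted p = 0.00514), while 0.343% of all probe sets were lower and 0.299% higher, with differences of -1.16 and -1.21 at replicate numbers 1 and 2. It did not pass without replicate 1 of 35S::IaTCP1 or without replicate 2 of 35S::TCP1, where no gene passed, and its difference was between -1.43 and -0.94 over the 4 fits without 1 array of these lines. Without the fold threshold 9 genes were lower (all probe sets 3.68%), namely *cemA*, *ndhF*, *petN*, *psbA*, *psbB*, *psbT*, *rpoB*, *rps14* and *rps16*. The largest of the others was *psbB* at -0.92, so that the lead of 35S::TCP1 was below 2-fold for nearly all genes.

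Between 35S::TCP1 and 35S::CYC no gene passed (all probe sets 0.607% higher and 1.38% lower), and 8 had an adjusted p of 0.05 or less, all higher with 35S::TCP1 (all probe sets 8.37%). The largest were *rps14* (0.93), *psbB* (0.76), *petN* (0.73) and *rpoB* (0.72). Between 35S::IaTCP1 and 35S::CYC no gene passed either (all probe sets 0.743% higher and 1.97% lower), and on the adjusted p alone only *psbA* was lower with 35S::IaTCP1 (-0.53, limma adjusted p = 0.00458, all probe sets 9.04%). The median difference was 0.13 for 35S::TCP1 against 35S::CYC (0.11 at replicate number 1 and 0.16 at number 2). For 35S::IaTCP1 against 35S::CYC it was -0.08 (0.08 at number 1 and -0.25 at number 2). Apart from *rps14*, no gene that passed against the empty vector in one line and not in another, such as *rpoC1*, passed between those lines.

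Several complexes and gene clusters did not change as units. In the *psbB* cluster, *psbB*, *psbT*, *psbN* and *petD* had changes of 0.96 to 2.27 over the lines, while *psbH* and *petB*, which lie between them, had 0.01 to 0.44. Within the cluster the distance between *psbB* and *petB* was 1.22 for 35S::IaTCP1, 2.19 for 35S::TCP1 and 1.51 for 35S::CYC. *ycf4* exceeded its neighbour *psaI* by 1.35, 1.78 and 1.57, *petG* exceeded *psaJ* by 1.38, 1.65 and 1.53, and *rps14* exceeded *psaB* by 0.55, 1.67 and 0.98. These differences are between the log2 changes of separate probe sets and were not tested. In each pair the gene with the larger change had the lower mean log2 intensity over the 8 arrays, such as 6.70 for *psbB* and 11.98 for *petB*.

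Other clusters moved together or stayed flat throughout. The *rpoB*, *rpoC1* and *rpoC2* genes lay between 0.86 and 1.58 in all lines. The pairs *psbK* and *psbI*, *atpB* and *atpE*, and *rpl33* and *rps18*, and the 4 genes of the *psbE* cluster, lay between -0.38 and 0.12. In the long cluster of ribosomal genes that ends with *rpoA*, 7 genes had a probe set of their own and none passed, with values between -0.32 and 0.71.

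**Figure D4:**
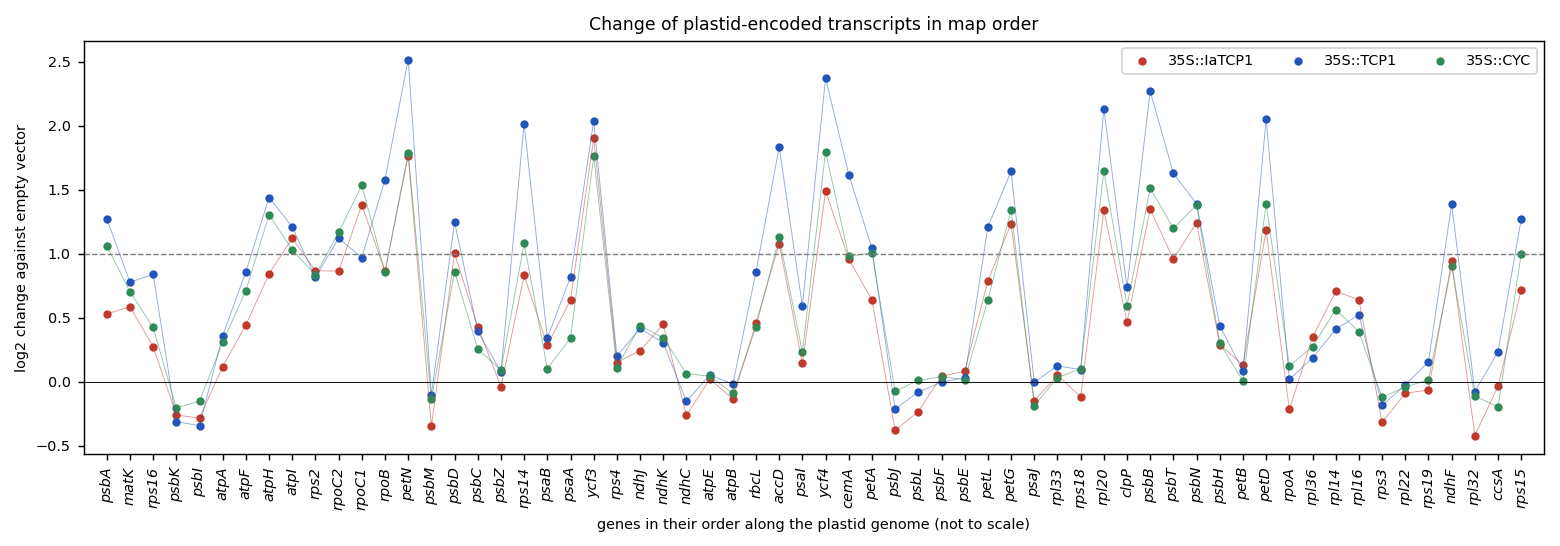
Log2 change against the empty vector (vertical) of the 62 plastid genes in their order along the plastid genome (horizontal, equally spaced), for 35S::IaTCP1, 35S::TCP1 and 35S::CYC, with the dashed line at 2-fold. Peaks such as psbB, ycf4, petG and rps14 stand near flatter genes of higher mean intensity such as petB, psaI, psaJ and psaB.

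Most genes that rose were among the plastid genes with the lower signals. The median log2 intensity of all probe sets was 6.48 to 6.56 on the 8 arrays. When the 62 genes were ordered by their mean log2 intensity over the 8 arrays, the 21 lowest (5.00 to 8.26) had medians of 1.00 for 35S::IaTCP1, 1.58 for 35S::TCP1 and 1.08 for 35S::CYC, and 10, 16 and 12 of them rose. The 20 genes in the middle (8.27 to 10.39) had medians of 0.45, 0.56 and 0.41, and 1, 5 and 5 rose. The 21 highest (10.95 to 13.54), which include *atpB*, *atpE*, *psaB*, *psbM* and *petB*, had medians of -0.06, 0.02 and 0.02, and none rose. Signal depends on the probes as well as on the RNA, so this order is one of probe sets and not of transcripts.

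All 17483 probe sets with a mean below 8.26 were described in the same way, the plastid genes and means below 5.00 included. Of these, 1.02% rose with 35S::IaTCP1, 0.646% with 35S::TCP1 and 1.57% with 35S::CYC, and their medians were 0.07, 0.05 and 0.03. Spearman's rho between mean intensity and change over the 62 genes was -0.78, -0.82 and -0.77, and over all 22746 probe sets it was -0.17, -0.24 and -0.14. The genes share the arrays and the normalization, and these values are descriptions over genes. Plastid probe sets of every level also varied more between replicates than all probe sets of the same range. The median standard deviation was 0.33 in the lowest 21 genes, against 0.08 for all probe sets below 8.26. It was 0.23 against 0.07 in the middle range and 0.14 against 0.05 in the highest. The part of signal level in the result was not tested.

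**Figure D5:**
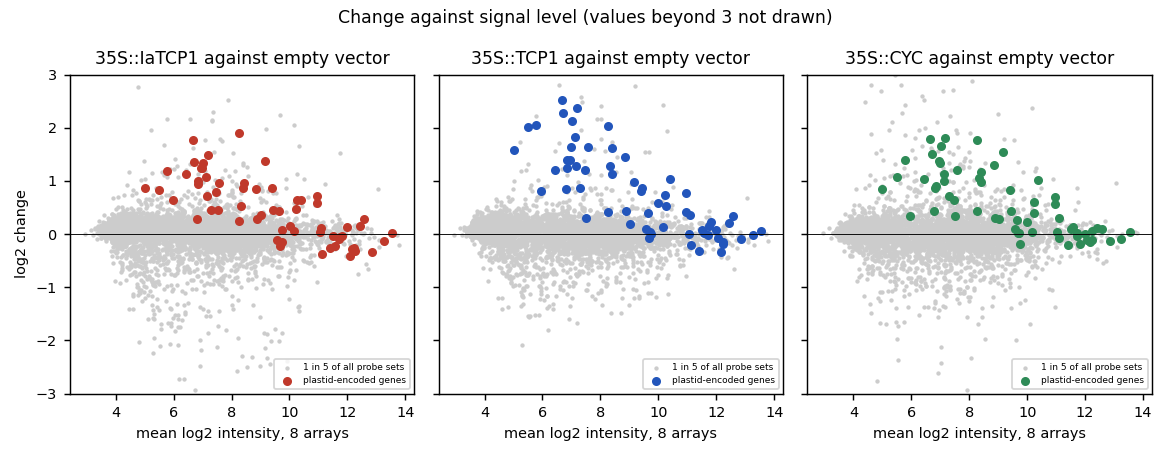
Log2 change against the empty vector (vertical, values beyond 3 not drawn) by mean log2 intensity over the 8 arrays (horizontal) for the 62 plastid genes (coloured) and for 1 in 5 of all probe sets (grey), for 35S::IaTCP1, 35S::TCP1 and 35S::CYC. Coloured points lie between 0.27 and 2.52 at intensities up to 8.26 and between -0.42 and 0.78 from 10.95 upwards.

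Plastid transcripts outside the 62 genes and nuclear genes for plastid proteins were set beside them. Of the 7 neighbouring genes left out, 3, 5 and 4 rose with 35S::IaTCP1, 35S::TCP1 and 35S::CYC. Probe sets that name several plastid genes number 8, of which 0, 2 and 0 rose. None of the 18 mitochondrial probe sets, from the other organelle with its own genome, passed in any line. Their medians were 0.16, 0.27 and 0.13, against 0.05, 0.03 and 0.02 for all probe sets. Of the 18, 13, 16 and 16 lay above 0 (all probe sets 60.4%, 56.6% and 54.7%). On the adjusted p alone 2, 4 and 3 were higher (all probe sets 8.75%, 6.25% and 8.89%). Several of the 18 belong to 1 gene, *nad1*.

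Nuclear genes for the same complexes did not pass. Of 39 listed nuclear genes for subunits of the photosystems, the cytochrome b6f complex, the ATP synthase and Rubisco, 6 had a probe set, with medians of -0.20, -0.06 and -0.05. Of 20 antenna genes 3 had one, with medians of -0.24, -0.11 and -0.21. Of 11 nuclear genes for NDH subunits 3 had a probe set (medians -0.18, -0.14 and -0.23), and of 32 nuclear genes for plastid ribosomal proteins 8 had one (medians -0.11, -0.03 and 0.02). Of the 8 sigma factors and organellar RNA polymerases only AT5G15700 was covered, a phage-type polymerase, at 0.07, 0.01 and -0.03. None of the 13 genes of polymerase-associated proteins or of the 14 genes of plastid RNA processing had a probe set that names them, so these were not analysed here.

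The pollen and tapetum markers used here are all among the genes that the paper lists as changed on these same arrays. That they differed between groups was therefore known beforehand and is no independent reading of tissue makeup. The 4 of 10 pollen and tapetum markers with a probe set summed to linear intensities of 804.8 to 844.3 with 35S::IaTCP1, 1410 to 1434 with 35S::TCP1 and 2683 to 2705 with 35S::CYC, against 3311 to 3392 with the empty vector. The lowest single value among them was a log2 intensity of 6.65, and 3, 3 and 1 of them fell. The sums joined unlike patterns. AT5G45880, AT3G07820 and AT1G29140 changed by -2.48, -2.51 and -2.58 with 35S::IaTCP1. With 35S::TCP1 they changed by -1.33, -1.28 and -1.53, and with 35S::CYC by -0.13, -0.14 and -0.30. The changes of *AMS* were -0.57, -0.71 and -1.81 for 35S::IaTCP1, 35S::TCP1 and 35S::CYC. The 6 nuclear photosynthesis genes, as markers of green tissue, summed to 26170 to 26850, 28980 to 30020 and 28830 to 29400, against 29640 to 30740 with the empty vector. The labelled tissue could not be checked with floral identity genes, since 0 of 10 are named in the probe annotation used. The difference between the 3′ and 5′ probe sets of the GAPDH control, which grows with RNA shortening, was 1.53 and 1.37 with 35S::IaTCP1, 1.73 and 1.78 with 35S::TCP1 and 1.62 and 1.62 with 35S::CYC, against 1.40 and 1.49 with the empty vector. The same difference of the Actin control was 4.10 and 3.83, 4.26 and 4.28, and 4.13 and 4.43 in these lines, against 3.81 and 3.93 with the empty vector, and that of the Ubq control was 0.50 and 0.30, 0.51 and 0.40, and 0.56 and 0.40, against 0.31 and 0.33. The part of tissue makeup or RNA quality in the plastid result was not tested.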

How the data were processed

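Total RNA of 8 samples was hybridised to Affymetrix ATH1 arrays. The authors deposited log2 intensities, normalized by RMA (the submitters' processing notes name Partek and RMA, without versions), which were used as deposited. Genome build and cDNA priming are not given in the sources used here. After 64 control probe sets were left out, 22746 remained. The platform's annotation pairs 13513 of them with 1 gene and 503 with several, and 8730 are unnamed here. Plastid genes and their order were taken from a RefSeq gene table, used for names and neighbours only.

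Groups were compared with limma 3.58.1 in R 4.3.3 (lmFit, then eBayes). The model held a mean for each of the 4 groups, which left 4 residual degrees of freedom, to which the prior added 7.9. The 6 comparisons came from this model, and p-values were adjusted over all probe sets of a comparison. The fit was tested on simulated data. The members, gene lists and tests were chosen with earlier results of these data known. Genes named with values are every gene that passed, the 5 highest and 5 lowest changes of each comparison with the empty vector, fixed representatives of each complex, and examples near a threshold. Other genes were named after their values were seen.

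Samples with the same replicate number deviated together from their group means (r of 0.164 to 0.516 over the 6 pairs of groups, and 0.162 to 0.526 without the plastid genes), so a fit with the number as a block was run. Other alternatives were cyclic loess, fits of the groups compared alone, a minimum mean of 5, unadjusted p, fold minimums of 1.5 or none, a trended prior, probe sets naming several genes and leaving out each array. Plots were made in matplotlib 3.10.9 under Python 3.11.15. The number of arrays limits the precision.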

Additional observations from a re-analysis of the deposited data

Results flagged for a closer look

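*rps14* differed between lines in the direct comparison, being lower with 35S::IaTCP1 than with 35S::TCP1 by a log2 difference of -1.18 (limma adjusted p = 0.00514, n = 2 arrays per group). The call was lost in 2 of the 4 fits that left out 1 array of these lines, without replicate 1 of 35S::IaTCP1 and without replicate 2 of 35S::TCP1, with differences between -1.43 and -0.94 over the 4.

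A signal appeared in probe sets outside the main measurement, which name both repeat copies of a plastid gene. *ycf2* measured 4.90 and 4.93 with 35S::IaTCP1, 5.48 and 5.86 with 35S::TCP1 and 4.69 and 4.83 with 35S::CYC, against 4.22 and 4.22 with the empty vector, and it rose by 1.45 with 35S::TCP1 (limma adjusted p = 4.06e-06). *ndhB*, a subunit gene of the NDH complex, rose by 1.18 with 35S::TCP1 (limma adjusted p = 9.02e-04). Outlying single arrays could not be looked for with 2 arrays in a group.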

How the results depend on the processing

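Counts of risen genes were 12, 22 and 17 for 35S::IaTCP1, 35S::TCP1 and 35S::CYC with the replicate number as a block, against 11, 21 and 17 without it. All genes called without the block were called with it, the block added *rpl20* for 35S::IaTCP1 and *rps15* for 35S::TCP1, and it changed no other call among the 62 genes. With a 1.5-fold minimum 21 genes passed for 35S::IaTCP1, 7 between 35S::IaTCP1 and 35S::TCP1 and 5 between 35S::TCP1 and 35S::CYC. With no fold minimum it was 25 (22 higher and 3 lower), 9 and 8, and 1 between 35S::IaTCP1 and 35S::CYC. Leaving out single arrays gave 5 to 21 genes for 35S::IaTCP1, 15 to 29 for 35S::TCP1 and 7 to 25 for 35S::CYC. For 35S::CYC the count was 7 without its own replicate 2 and also 7 without replicate 1 of the empty vector. Medians ranged over 0.11 to 0.69, 0.27 to 1.00 and 0.091 to 0.84. Between transgenes, 0 to 4 genes passed for 35S::IaTCP1 against 35S::TCP1 and 0 to 3 for 35S::TCP1 against 35S::CYC.

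Of 1200 values of single genes under alternatives, 46 lost their call, 43 of them without 1 array and 21 of these without replicate 1 of the empty vector. The other 3 were *psbD* for 35S::IaTCP1 under cyclic loess (0.98) and *petL* for 35S::TCP1 under cyclic loess (adjusted p = 0.0532 in limma) and with a minimum mean of 5 (0.0591). The 1200 values include genes that had no call to lose and settings that could only add calls, so they are no measure of stability. The sign turned 11 times, in changes near 0 that had not passed. For *atpB* with 35S::TCP1 it did so under cyclic loess (0.033). Without single arrays, *atpB* ranged over -0.042 to 0.0072 with 35S::TCP1 and -0.18 to 0.0016 with 35S::CYC, and *psaB* over -0.054 to 0.62 with 35S::IaTCP1 and -0.24 to 0.44 with 35S::CYC. *rps4* ranged over -0.13 to 0.43 with 35S::IaTCP1, -0.084 to 0.49 with 35S::TCP1 and -0.25 to 0.48 with 35S::CYC. The causes were not tested.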
